A study of Homo sapiens with 14 samples.

Results

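The comparison described here is the step from untreated cells at 14 h to vehicle-treated cells at 16 h, read with a pair of RNA polymerase II (RNAPII) antibodies. It uses 4 of the 14 ChIP-seq libraries: total RNAPII and Ser2 RNAPII at 14 h, with no treatment named, and the same antibodies at 16 h in cells given DMSO, the solvent vehicle. All were made from BJ-hTERT cells, human foreskin fibroblasts immortalised with the catalytic subunit of telomerase. The labels place the study in S phase and ask about an inhibitor of ATR, the kinase that responds to replication stress, but they do not say from what event the hours run, how cells were synchronised or which inhibitor was used. The total antibody is labelled as one against the amino-terminal part of RPB1, the largest RNAPII subunit, and the other as one against RPB1 phosphorylated on serine 2 of its repeated tail. Each group is 1 library, so no value below has a replicate error, and the later hour and the addition of DMSO cannot be told apart. Of the 12425 genes in the authors' table, 12411 are nuclear, and the 11944 of these with a mean of at least 1 read per 1000000 library reads (RPM) over the 4 libraries were compared. The remaining 467 nuclear genes fell below that level and 14 genes are mitochondrial.

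RNAPII gathers at promoters, often pauses just downstream of the start site and is then released into the gene body. Serine 2 of the tail is phosphorylated mainly by CDK9 and CDK12 during elongation, and this mark is known to build up toward the ends of genes. Total RNAPII over a gene therefore counts paused and moving enzyme together, whereas the Ser2 signal leans toward the moving enzyme. Genes of the immediate early class, such as EGR1, are switched on and off within minutes as growth factor signals come and go, and mitotic genes such as CCNB1 are known to be transcribed late in the cell cycle.

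Of all genes compared, EGR1 was the lowest at 16 h in each antibody, and it led a group of 29 genes that were lower by at least 1.3-fold in both. Besides EGR1, an immediate early transcription factor, that group held PTGS2 (the inducible cyclooxygenase), MMP1 (interstitial collagenase), HSPA5 (the endoplasmic reticulum chaperone BiP), DUSP5 (a phosphatase of ERK kinases) and F3 (tissue factor). A smaller group of 22 genes was higher in both, among them the mitotic genes CCNB1 and KIF20A and the chemokine gene CXCL12. Over all genes, however, the antibodies did not move together: genes with a dense signal were higher in total RNAPII and lower in Ser2, and sparse genes the other way round.

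The promoters of EGR1, HSPA5, CCNB1 and KIF20A are shown. These genes are among the 29 lower and the 22 higher in both antibodies, and each carries a motif looked for in it. The PTGS2 promoter was searched for CRE (TGACGTCA), AP-1, E-box (CACGTG) and CArG motifs, had 0 matches of each and is not shown. CCNB1 and KIF20A were also searched for the cell cycle homology region, with 0 matches in each. Each run covers 250 bases before and 50 bases after the RefSeq start site on GRCh38.p14, in the direction of transcription. EGR1 lies at chr5:138465229-138465528 on the plus strand, and the capitals mark 2 CArG boxes, the motif bound by serum response factor. HSPA5 lies at chr9:125241294-125241593 on the minus strand, and the capitals mark 1 ER stress element, a CCAAT box and CCACG set 9 bases apart. CCNB1 lies at chr5:69166900-69167199 and KIF20A at chr5:138178862-138179161, both on the plus strand, and their capitals mark 2 CCAAT boxes each, read on either strand.
EGR1: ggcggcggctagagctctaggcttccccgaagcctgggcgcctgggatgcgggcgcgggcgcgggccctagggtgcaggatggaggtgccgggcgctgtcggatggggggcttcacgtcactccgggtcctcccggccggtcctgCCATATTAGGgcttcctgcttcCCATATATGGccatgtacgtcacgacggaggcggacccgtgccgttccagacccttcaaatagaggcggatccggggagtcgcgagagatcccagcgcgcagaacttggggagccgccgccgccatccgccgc
HSPA5: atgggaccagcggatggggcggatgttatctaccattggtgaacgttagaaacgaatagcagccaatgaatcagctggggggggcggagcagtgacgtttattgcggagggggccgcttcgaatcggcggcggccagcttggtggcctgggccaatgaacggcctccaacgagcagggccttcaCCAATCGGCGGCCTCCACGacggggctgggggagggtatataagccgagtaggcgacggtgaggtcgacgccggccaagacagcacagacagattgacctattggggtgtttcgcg
CCNB1: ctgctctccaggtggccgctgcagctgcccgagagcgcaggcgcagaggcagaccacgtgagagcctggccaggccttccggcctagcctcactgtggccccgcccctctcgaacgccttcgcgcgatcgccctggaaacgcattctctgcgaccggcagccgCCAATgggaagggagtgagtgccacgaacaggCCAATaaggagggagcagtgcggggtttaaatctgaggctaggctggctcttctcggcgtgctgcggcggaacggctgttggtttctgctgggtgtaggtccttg
KIF20A: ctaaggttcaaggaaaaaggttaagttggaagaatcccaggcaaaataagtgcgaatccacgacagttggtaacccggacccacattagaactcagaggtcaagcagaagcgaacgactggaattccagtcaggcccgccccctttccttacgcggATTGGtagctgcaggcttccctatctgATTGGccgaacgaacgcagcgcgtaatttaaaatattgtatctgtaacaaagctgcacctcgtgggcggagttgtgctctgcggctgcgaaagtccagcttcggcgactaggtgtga

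The CArG box was present in 1.08% of the 8578 promoters of compared genes that could be matched, and the ER stress element in 0.105%, which is 9 promoters. Each occurred in 1 of the 8 matched promoters of the genes lower in both antibodies, that of EGR1 or HSPA5. Neither occurred in the 17 matched promoters of the genes higher in both. Both motifs were added after the values had been seen. CCAAT boxes (CCAAT on either strand) occurred in 36.6% of all matched promoters, in 11 of the 17 matched promoters of the genes higher in both antibodies and in 4 of the 8 matched promoters of the genes lower in both. E2F motifs (TTTGGCGC, TTTCCCGC, TTTGGCGG or TTTCCCGG) occurred in 3 of the 17, in 0 of the 8 and in 7.61% of all. The cell cycle homology region (TTTGAA or TTCGAA) was found in 0 of the 17, in 2 of the 8, HSPA5 and EGR1, and in 11.1% of all. AP-1 motifs (TGANTCA) occurred in 1 of the 17, in 2 of the 8 and in 4.22% of all. These matches describe letters in a window and do not show binding.

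The 4 libraries held 17181179 (total) and 18152431 (Ser2) reads at 14 h and 26482785 and 38269525 at 16 h, and nuclear genes took 43.4%, 37.7%, 49.4% and 35.8% of them. The share in genes was thus higher at 16 h in total RNAPII and lower in Ser2. The median gene held 319 to 680 reads, and a count of 3 reads equals 0.0784 to 0.175 RPM. Before centring, the median gene lay at a log2 ratio of 16 h to 14 h of 0.26 in total RNAPII (1.2-fold) and at -0.07 in Ser2 (0.956-fold). All log2 ratios below are log2(RPM + 0.5) differences relative to that median gene, which understates the change of genes with few reads. Intervals given with them are exact binomial intervals at 95% from recovered reads without the added 0.5 and cover counting error only. For a typical gene they reach 0.19 to either side in total RNAPII and 0.20 in Ser2. For a gene chosen by its ratios, the interval comes from the reads that chose it and is no separate test. Of 10 fibroblast markers, 9 were in the table, with a summed density of 42.2 RPM per kb in total RNAPII at 14 h, 60 at 16 h, and 35.1 and 27.2 in Ser2. Of the keratinocyte markers 2 of 10 were in the table, of the endothelial 2 of 8, of the melanocyte 1 of 6 and of the blood cell markers 0 of 8, each list summing to 0.260 to 0.583 RPM per kb where any were present.

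Within each antibody the 2 hours had nearly the same order of genes. Across the 11944 genes, Pearson's r of log2 RPM between 14 h and 16 h was 0.988 in total RNAPII and 0.991 in Ser2. At 14 h the antibodies matched each other as closely (r = 0.991), and at 16 h less so (r = 0.962). The ratios themselves had an SD across genes of 0.24 in total RNAPII and 0.21 in Ser2. The central 90% of genes ran from -0.38 to 0.39 and from -0.39 to 0.28. In total RNAPII, 646 genes (5.41%) were higher by 1.3-fold and 613 (5.13%) lower. In Ser2, 207 (1.73%) were higher and 640 (5.36%) lower.

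The total and Ser2 ratios, which share no library, ran weakly against each other across genes, with Pearson's r of -0.14 and Spearman's rho of -0.22. Only 40.2% of genes lay on the same side of the median gene in both antibodies. With 1.3-fold asked of each antibody, 22 genes were higher in both (0.184%), 29 were lower in both (0.243%), 30 were higher in total and lower in Ser2 (0.251%), and 12 were lower in total and higher in Ser2 (0.100%). Genes are not independent replicates, so these correlations are descriptions of 4 libraries. Removal of the trend with read density described below turned r to 0.29 and the share on the same side to 60.8%, with 39 genes (0.327%) higher and 44 (0.368%) lower in both.

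**Figure D1:**
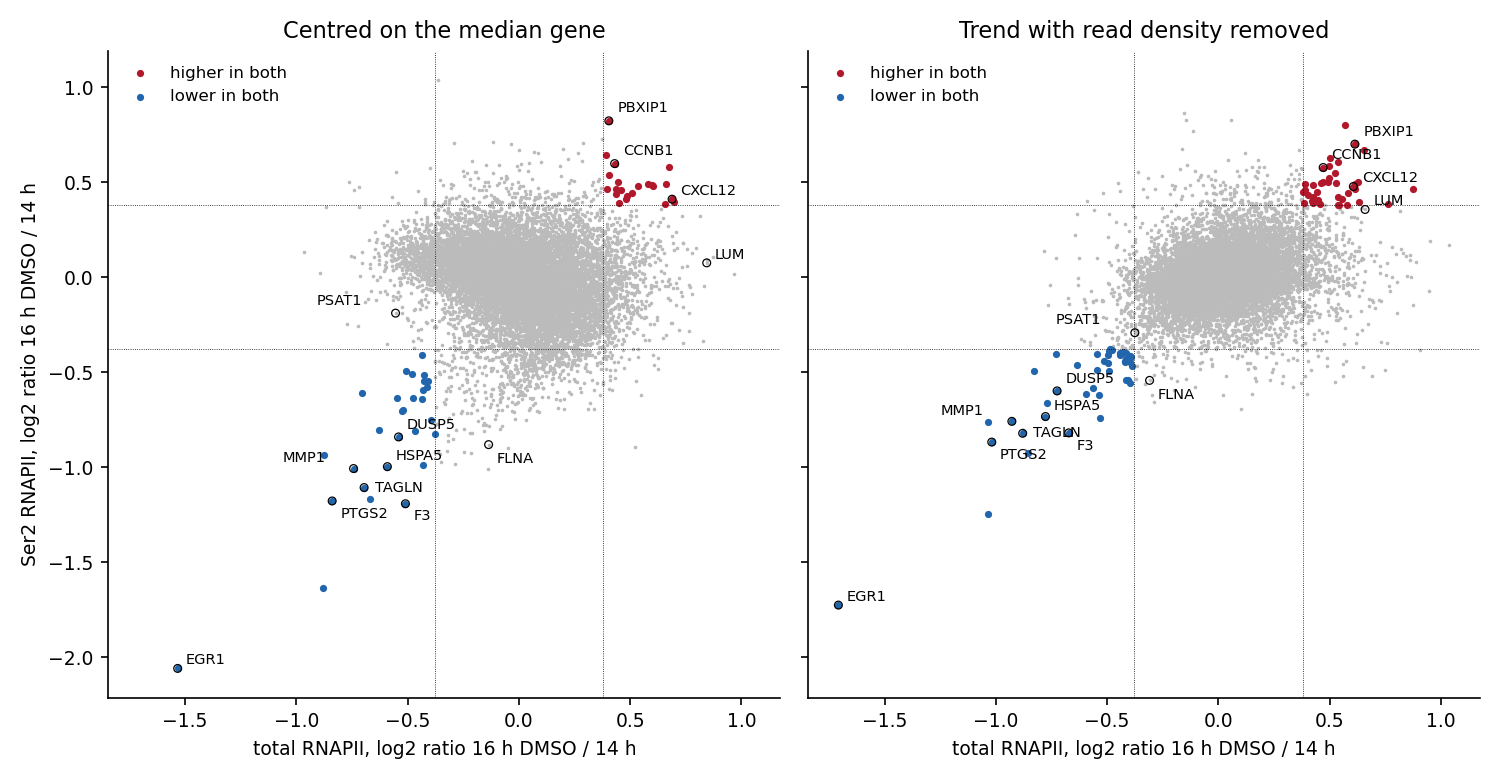
Log2 ratio of 16 h DMSO to 14 h in total RNAPII (horizontal) and Ser2 RNAPII (vertical) for 11944 genes, each a point, relative to the median gene (left) and with the trend with read density removed (right); dotted lines mark 1.3-fold. The cloud slopes down on the left (r = -0.14) and up on the right (r = 0.29), and EGR1 lies apart at the lower left in both panels.

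EGR1 (ENSG00000120738, hg38 chromosome 5, 138465490 to 138469315) had 27.2 RPM in total RNAPII at 14 h and 10.95 at 16 h, and 19.6 and 4.10 RPM in Ser2. Both 16 h libraries were far below their 14 h partners. Relative to the median gene its log2 ratio was -1.53 in total RNAPII (counting interval -1.79 to -1.36) and -2.06 in Ser2 (-2.47 to -1.91), which is 2.89 and 4.16 times lower. The low values rest on 290 and 157 reads at 16 h. At the later hours in DMSO its total signal was 59.96 RPM at 19 h and 11.5 at 22 h, and its Ser2 signal 42.3 and 7.20, so the level at 16 h lay below that of both neighbouring hours. These levels are not centred. Nuclear genes took 72.0% (total) and 63.5% (Ser2) of reads at 19 h against 49.4% and 35.8% at 16 h, and the part of that share was not tested. EGR1 was also low in the 16 h libraries given the ATR inhibitor (ATRi), with 11.8 RPM in total and 4.15 in Ser2.

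Other genes of signalling and secretion followed at smaller sizes. PTGS2 (chromosome 1, 186671791 to 186680427) went from 41.0 to 27.3 RPM in total RNAPII and from 33.8 to 14.0 in Ser2, log2 ratios of -0.84 and -1.18. MMP1 (chromosome 11, 102789920 to 102798160) went from 23.6 to 16.8 and from 20.4 to 9.43 RPM, ratios of -0.74 and -1.01. F3 (chromosome 1, 94529225 to 94541800), the gene of the receptor that starts blood clotting, went from 92.1 to 77.4 and from 79.8 to 33.1 RPM, ratios of -0.51 and -1.19. In all of these the log2 ratio was lower in Ser2 than in total RNAPII. With the density trend removed that order turned at PTGS2 (-1.02 in total and -0.87 in Ser2) and MMP1 (-0.93 and -0.76). It held at F3 (-0.67 and -0.82). DUSP5 went from 38.2 to 31.3 and from 27.7 to 14.5 RPM, ratios of -0.54 and -0.84. ELL2, a subunit of an elongation complex that acts on paused RNAPII, went from 125.4 to 108.0 and from 104.3 to 63.9 RPM, ratios of -0.47 and -0.64. CDK2AP2, which encodes a CDK2-associated protein, lay at -0.55 and -0.64 on 1.91 to 6.05 RPM.

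The actin-binding gene TAGLN lay at -0.70 in total RNAPII and -1.11 in Ser2, from 21.01 to 15.4 and from 17.4 to 7.45 RPM. It lies at chromosome 11, 117199321 to 117204782, and its end overlaps PCSK7 (117204337 to 117232525), a proprotein convertase gene on which the ratios were -0.67 and -1.17. A gene without a symbol, ENSG00000280143 (117204967 to 117210292), lies wholly inside PCSK7 and had the second lowest Ser2 ratio among the 29, -0.88 in total and -1.64 in Ser2. Reads in the shared stretches cannot be assigned to 1 entry, and these make up 8.17% of the span of TAGLN, 20.5% of that of PCSK7 and 100% of that of ENSG00000280143. By reads, the shared part of PCSK7 was larger. In total RNAPII ENSG00000280143 held 48.3 RPM at 14 h and 31.2 at 16 h. The whole of PCSK7 held 75.8 and 56.9. Other members lower in both included IGFBP5 (an insulin-like growth factor binding protein) at -0.43 and -0.99, CSRP1 (a LIM domain protein of the actin cytoskeleton) at -0.38 and -0.83, FOXC2 (a forkhead transcription factor) at -0.43 and -0.59 and NOG (the BMP antagonist noggin) at -0.42 and -0.55. In the ATRi libraries FOXC2 lay at 0.29 and 0.05 and CSRP1 at 0.07 and -0.32, against the same 14 h libraries.

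The unfolded protein response gene HSPA5 (chromosome 9, 125234853 to 125241330) went from 20.8 to 16.5 RPM in total RNAPII and from 16.7 to 7.76 in Ser2, ratios of -0.59 and -0.996. Its counting intervals, -0.81 to -0.39 and -1.28 to -0.81, lay below the median gene. In the 14-library fit described below HSPA5 was among the 7 genes lower after centring. It had 19.5 and 8.50 RPM in the 16 h ATRi libraries.

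Of the 29 genes lower in both antibodies, 26 had counting intervals below the median gene in each, 17 were still 1.3-fold lower in both with the density trend removed, and 11 shared part of their span with another gene. The intervals rest on the reads that chose the 29, so most are bound to lie below the median gene. With the 16 h ATRi libraries in place of DMSO, against the same 14 h libraries, 8 of the 29 were 1.3-fold lower in both. They were short and dense: their median length was 5326 bp against 32186 bp over all compared genes, and their median density 2.47 RPM per kb against 0.581. The match by position gave no symbol to 7 of the 29, of which 4 share span with another gene. ENSG00000166598 (chromosome 12, 103930107 to 103953645), whose span holds the whole RefSeq gene HSP90B1, an endoplasmic reticulum chaperone, and parts of its neighbours, lay at -0.71 and -0.61 and is not counted among the unfolded protein response genes below. ENSG00000078401 (chromosome 6, 12290363 to 12297194), which lies within the RefSeq gene EDN1 (the vasoconstrictor peptide endothelin 1), lay at -0.87 and -0.94. A group of 5 were spliceosomal small nuclear RNA genes: RNU4-2 (-0.53 and -0.70), RNU5B-1 (-0.52 and -0.70), RNU5A-1 (-0.48 and -0.51), RNU5E-1 (-0.47 and -0.81) and RNU4ATAC (-0.39 and -0.75). These genes have near-identical copies in the genome, so their values are uncertain. Without the density trend their Ser2 ratios ran from -0.12 to 0.18.

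**Figure D2:**
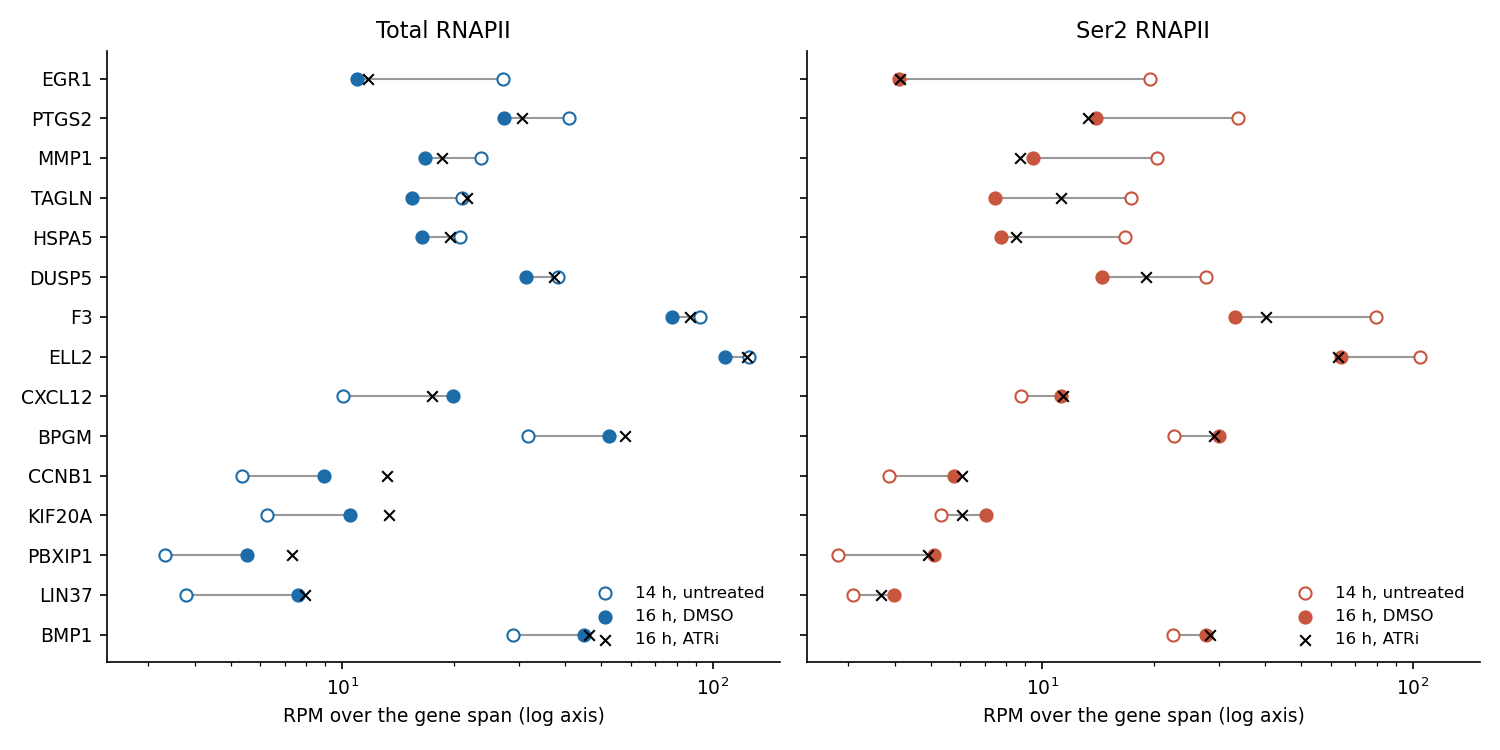
Signal in reads per 1000000 library reads (RPM, log axis) over the gene span of 15 named genes in total RNAPII (left) and Ser2 RNAPII (right), with 14 h as open circles, 16 h DMSO as filled circles and 16 h ATRi as crosses, 1 library each. EGR1 goes from 27.2 to 10.95 RPM on the left and from 19.6 to 4.10 on the right, while CXCL12, BPGM, CCNB1 and KIF20A are higher at 16 h in both panels.

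Among the 22 genes higher in both antibodies, the mitotic gene KIF20A lay close to the 1.3-fold limit in each and CCNB1 in total RNAPII. CCNB1, which encodes cyclin B1, went from 5.36 to 8.95 RPM in total RNAPII and from 3.86 to 5.80 in Ser2, ratios of 0.43 (interval 0.13 to 0.84) and 0.60 (0.26 to 1.06). KIF20A, a kinesin of the central spindle, went from 6.29 to 10.5 and from 5.34 to 7.06 RPM, ratios of 0.44 in each. In the ATRi libraries CCNB1 had 13.2 and 6.09 RPM, and KIF20A 13.4 and 6.09. In DMSO at 19 h CCNB1 had 16.3 RPM in total RNAPII and 12.9 in Ser2, without centring. Nuclear genes took 72.0% and 63.5% of the reads of those libraries, against 49.4% and 35.8% in DMSO at 16 h. The part of that share in the CCNB1 levels was not tested.

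CXCL12 (chromosome 10, 44370165 to 44386493), a chemokine made by fibroblasts, went from 10.1 to 19.9 RPM in total RNAPII and from 8.76 to 11.3 in Ser2, ratios of 0.69 and 0.41. BPGM (bisphosphoglycerate mutase) had the most reads of the named genes in this group, with 31.7 and 52.4 RPM in total RNAPII and 22.8 and 30.1 in Ser2, and ratios of 0.46 in each. PBXIP1, which encodes a protein that binds PBX transcription factors, had the highest Ser2 ratio of the 22, at 0.82, with 0.40 in total. LIN37, a subunit of the DREAM complex that represses cell cycle genes, lay at 0.66 and 0.38, HCN2 (a pacemaker channel) at 0.40 and 0.46, PLD2 (phospholipase D) at 0.45 and 0.39 and the noncoding RNA gene PRECSIT at 0.48 and 0.43. Just short of 1.3-fold in at least 1 antibody were TCEA2, a transcript elongation factor, at 0.36 and 0.52, BMP1, a procollagen protease, at 0.36 in each, and PACSIN3, an endocytic adaptor, at 0.53 and 0.35.

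This group rests on fewer reads than the lower one. Its median gene held 74 reads in total RNAPII at 14 h, 9 of the 22 had under 50 reads in at least 1 library, and 14 had counting intervals above the median gene in both antibodies. These intervals too rest on the reads that chose the genes. With the density trend removed, 14 remained 1.3-fold higher in both, and with the 16 h ATRi libraries 12. The counts of genes higher in both ranged from 10 to 39 over the pseudocounts, filters and scalings tried, and a background subtraction gave 187. At 1.5-fold no gene was higher in both, whereas 10 were lower.

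At 42 genes the antibodies moved past 1.3-fold in opposite directions. Total RNAPII was lower and Ser2 higher at DTX4, which encodes a ubiquitin ligase of the Notch pathway, with 9.49 and 7.55 RPM in total and 8.98 and 11.7 in Ser2, ratios of -0.57 and 0.42. MREG (melanoregulin) lay at -0.54 and 0.39, MAP3K7CL at -0.42 and 0.39, the pseudogene GTF2IP14 at -0.45 and 0.46, ZDHHC11B at -0.38 and 0.39 and the noncoding LINC02762 at -0.39 and 0.38. Without the density trend all 6 kept the sign of each antibody, at -0.35 to -0.16 and 0.23 to 0.32, and none was past 1.3-fold in either. DTX4, MREG, ZDHHC11B and LINC02762 were in the sparsest decile of genes, up to 0.327 RPM per kb. The endothelial markers VWF and TEK, as sparse, moved the same way, with medians of -0.43 and 0.33. The part of background signal in these ratios was not tested. On the other side, total was higher and Ser2 lower at MRPS2, a mitochondrial ribosomal protein gene, with 6.46 and 11.6 RPM in total and 5.18 and 3.55 in Ser2, ratios of 0.54 and -0.42. BANF1, which encodes a DNA-bridging protein of the nuclear envelope, lay at 0.47 and -0.48, the creatine transporter gene SLC6A8 at 0.42 and -0.43, DMWD at 0.42 and -0.41, S1PR1-DT at 0.43 and -0.45 and the microRNA gene MIR23A at 0.55 and -0.62. Without the trend these 6 kept their signs as well, but MIR23A lay at only -0.02 in Ser2 and S1PR1-DT at -0.10. Of the 6, only SLC6A8 was still past 1.3-fold in both, at 0.49 and -0.47.

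Read density ordered the ratios of both antibodies, in opposite directions. From the sparsest to the densest decile of genes by RPM per kb, the median total ratio went from -0.22 to 0.18 and the median Ser2 ratio from 0.15 to -0.30. Spearman's rho with density was 0.56 for total and -0.65 for Ser2 across the 11944 genes, and with gene length -0.53 and 0.35. In the decile of longest genes, those over 160047 bp, the medians were -0.25 and 0.09. Within single density deciles the antibodies ran together in all but the sparsest: r was 0.00 in the sparsest decile, 0.13 to 0.41 in the next 8 and 0.62 in the densest. Density here is the mean over the same libraries, so it shares their counting noise.

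**Figure D3:**
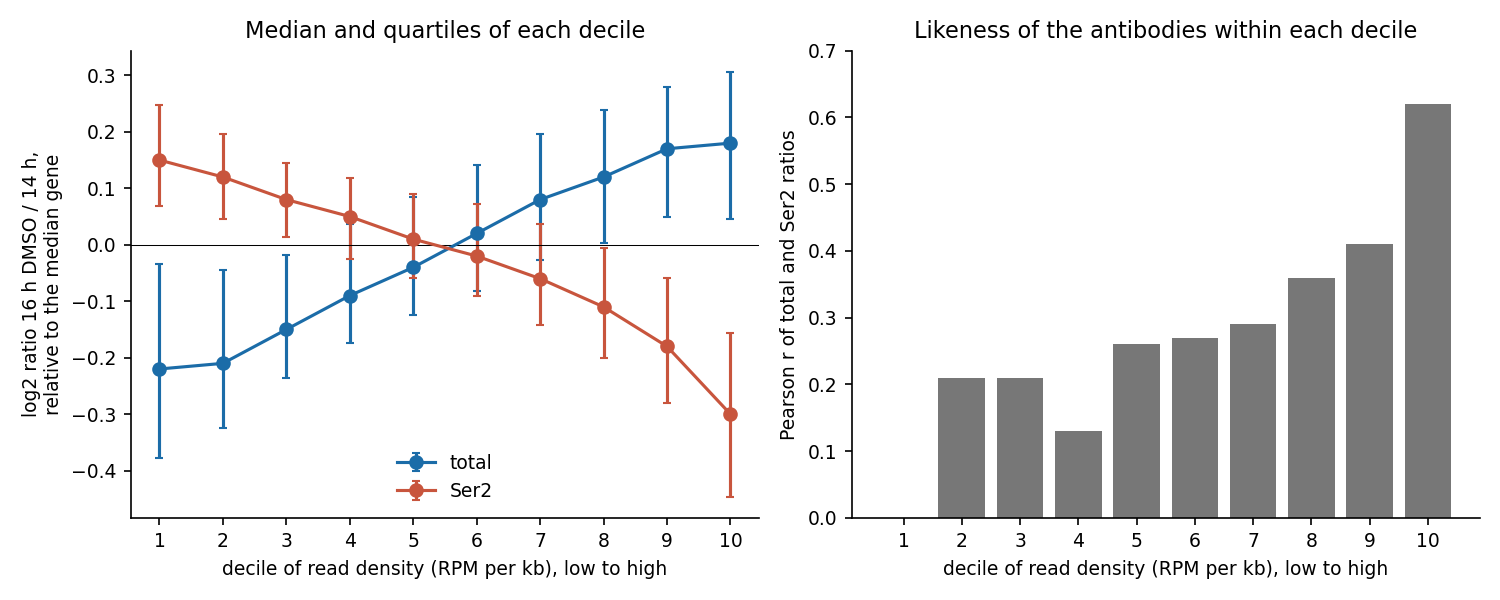
Median (points) and quartiles (bars) of the log2 ratio of 16 h DMSO to 14 h in deciles of genes by read density, and Pearson's r between the antibodies within each decile. Total RNAPII climbs from -0.22 to 0.18 while Ser2 descends from 0.15 to -0.30, and r climbs from 0.00 to 0.62.

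With the 16 h ATRi libraries in place of DMSO, and the same 14 h libraries, r between the antibodies was 0.31 and 59.8% of genes lay on the same side of the median gene in both. In that comparison 241 genes were higher and 66 lower by 1.3-fold in both, and the uncentred medians were 0.32 in total RNAPII and 0.00 in Ser2. The Ser2 16 h DMSO library is also the deepest of these 6, at 38269525 reads against 17181179 to 26482785. The part of depth in these patterns was not tested.

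Position along the genome ordered total RNAPII more than Ser2. The median total ratio of a chromosome ran from -0.11 on chromosomes 18 and 4 and -0.09 on chromosome 13 to 0.10 on chromosomes 19 and 22 and 0.11 on chromosome 16. The Ser2 medians stayed between -0.03 and 0.02. Chromosomes 19 and 16 carry short genes (medians 16899 and 19490 bp) and chromosomes 4 and 18 long ones (57441 and 54151 bp). With the density trend removed, chromosomes 16, 19 and 22 were at 0.08 to 0.09 and chromosomes 18 and 4 at -0.07 and -0.08. For 11439 genes with at least 3 non-overlapping neighbours within 1 Mb, the ratio of a gene and the median of its neighbours had r = 0.43 in total RNAPII and 0.03 in Ser2, or 0.39 and 0.16 without the density trend.

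**Figure D4:**
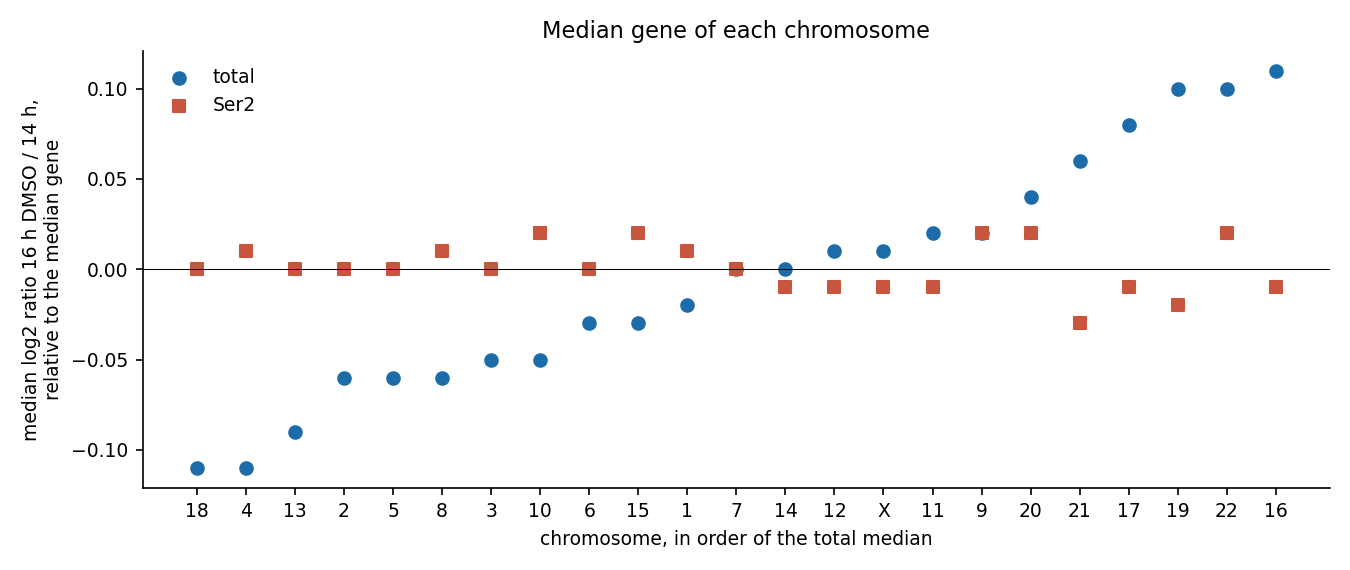
Median log2 ratio of 16 h DMSO to 14 h of the genes of each chromosome, relative to the median gene, in total RNAPII (circles) and Ser2 RNAPII (squares). The total medians span -0.11 to 0.11, and the Ser2 medians stay between -0.03 and 0.02.

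Lists of genes of known processes were then read in both antibodies beside all genes, whose median is 0 and of which 5972 lie above it in each antibody. Of all genes, 2401 lay above the median gene in both antibodies and 2401 below it in both. G2/M and mitotic genes stood above in both antibodies: of 47 measured, 37 were above the median gene in total RNAPII and 30 in Ser2, with medians of 0.15 and 0.07. In total, 6 were higher by 1.3-fold against 5.41% of all genes, in Ser2 3 against 1.73%, and none was lower in either antibody. Besides CCNB1 and KIF20A, the microtubule depolymerase gene KIF2C lay at 0.22 and 0.43, CCNF (cyclin F) at 0.26 and 0.35 and CENPF (a kinetochore protein) at 0.33 and 0.22. AURKB, the chromosomal passenger kinase, had 0.51 and -0.05, BIRC5 (survivin), its partner, 0.39 and -0.26 and CCNA2 (cyclin A2) 0.17 and -0.19, so not all members were above in Ser2. With the density trend removed the medians were 0.11 and 0.08, with 34 and 36 of 47 above.

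G1/S and DNA replication genes were split between the antibodies. Of 50 measured, 40 were above the median gene in total RNAPII and 2 in Ser2, with medians of 0.14 and -0.14, and by 1.3-fold 1 was higher in total (5.41% of all genes) and 5 were lower in Ser2 (5.36%). The transcription factor gene E2F1 (0.28 and -0.08), the sliding clamp gene PCNA (0.27 and -0.16) and the helicase subunit gene MCM2 (0.11 and -0.16) all had that pattern. The counting intervals of all 3 reached the median gene in Ser2, and that of MCM2 reached it in total RNAPII as well (-0.052 to 0.295). TK1 (thymidine kinase) lay at 0.08 and -0.51 and MCM3, of the same helicase, at -0.14 and -0.33. Without the density trend the list lay at 0.02 and -0.05.

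Replication-dependent histone genes, which are transcribed in S phase, had the largest median of the 23 lists in total RNAPII, 0.29, with 22 of 23 measured members above the median gene. By 1.3-fold, 8 were higher in total, against 5.41% of all genes. H2AC4 went from 5.70 to 11.4 RPM (0.68), H2AC16 from 6.52 to 12.7 (0.65), H2BC10 from 5.06 to 9.10 (0.53) and H1-5 from 14.4 to 23.7 (0.44). The span of H2AC16 is wholly shared with another gene. In Ser2 the median was -0.14, 3 of 23 were above and 3 were lower by 1.3-fold against 5.36% of all genes, among them H1-2 (-0.04 in total and -0.49 in Ser2). These are dense genes (median 24.0 RPM per kb), and with the density trend removed the Ser2 median was 0.36, with 23 of 23 above. With background subtracted instead, 9 were above in Ser2. The densest decile of all genes starts at 1.7 RPM per kb, and how well the trend holds at the density of these genes was not tested. The histone genes resemble one another in sequence, so reads may be shared among copies.

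Immediate early genes were low in Ser2: of 21 measured, 20 lay below the median gene and 11 were lower by 1.3-fold, against 5.36% of all genes, with a median of -0.40. In total RNAPII the list lay at -0.01, with 10 above and 2 lower by 1.3-fold, EGR1 and EGR3, against 5.13% of all genes. JUN went from 47.5 to 46.6 RPM in total RNAPII and from 40.8 to 19.5 in Ser2, ratios of -0.29 and -0.98. JUNB lay at -0.28 and -0.80, FOSL1 at -0.15 and -0.78, MYC at -0.21 and -0.72, ZFP36 (an mRNA decay factor) at 0.18 and -0.69 and IER2 at -0.20 and -0.64. EGR3 had 2.39 and 1.36 RPM in total (-0.89) and 1.87 and 1.80 in Ser2 (0.02). Without the density trend the medians were -0.18 and -0.13.

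Genes of the ERK feedback list, whose products restrain growth factor signalling, had medians below the median gene in both antibodies. Of 13 measured, 4 were above in total RNAPII and 2 in Ser2, and the medians were -0.19 and -0.36. By 1.3-fold 1 was lower in total, against 5.13% of all genes, and 6 in Ser2, against 5.36%. SPRY4 went from 38.6 to 36.2 RPM in total and from 31.0 to 14.8 in Ser2 (-0.35 and -0.97), PHLDA1 lay at 0.05 and -0.70, DUSP1 at -0.13 and -0.68 and ERRFI1 at -0.34 and -0.36. DUSP10 lay above in both, at 0.12 and 0.11. Targets of YAP, SRF and TGF-beta lay at -0.11 and -0.31 over 19 genes, and at -0.17 and -0.08 without the density trend. By 1.3-fold 9 were lower in Ser2 (5.36% of all genes) and 2 higher (1.73%). The matricellular genes CCN1 and CCN2 lay at -0.36 and -0.33 in total RNAPII and at -0.92 and -0.91 in Ser2. SMAD7, the inhibitory SMAD, went from 68.4 to 121.6 RPM in total (0.56) and from 58.8 to 57.0 in Ser2 (0.02), and SMAD6 lay at -0.11 and 0.42.

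Endoplasmic reticulum unfolded protein response genes lay below the median gene in both antibodies, with medians of -0.25 in total RNAPII and -0.23 in Ser2, although on the deposited scale, without centring, 10 of the 18 measured were above 0 in total. Relative to the median gene 0 of 18 were above in total and 3 in Ser2, and 15 were below in both. By 1.3-fold 5 were lower in total, against 5.13% of all genes: HSPA5, HYOU1, PDIA6, SEL1L and ATF6. HYOU1, a chaperone, went from 12.5 to 10.6 RPM in total (-0.49) and from 7.66 to 6.04 in Ser2 (-0.25). PDIA6, a disulfide isomerase, lay at -0.48 and -0.08, SEL1L, of the degradation pathway, at -0.45 and -0.13 and the sensor ATF6 at -0.39 and 0.13. In Ser2 6 were lower, against 5.36%, among them XBP1, the transcription factor of the response (-0.08 and -0.63), and HERPUD1 (-0.27 and -0.58). The medians were -0.29 and -0.16 with the density trend removed.

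The ATF4 and amino acid stress list lay at -0.08 and -0.25 over 25 genes, with 16 below in both, but 19 were above 0 in total RNAPII on the deposited scale. The medians became -0.19 and -0.08 with the density trend removed. MTHFD2, a mitochondrial folate enzyme, went from 30.3 to 26.7 RPM in total and from 20.8 to 15.7 in Ser2 (-0.44 and -0.33), PSAT1, of serine synthesis, lay at -0.55 and -0.19, and GARS1, a tRNA synthetase, at -0.33 and -0.50. SLC38A2, an amino acid transporter gene, lay at 0.34 and -0.31.

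Fibroblast matrix and contractile genes were lower by 1.3-fold in Ser2 in 15 of 32 cases (5.36% of all genes) and higher in total RNAPII in 5 (5.41%). LUM (lumican) had the highest total ratio of the list, with 19.8 and 43.1 RPM in total (0.84) and 18.3 and 18.4 in Ser2 (0.08). DCN (decorin) lay at 0.47 and 0.12 and COL6A2 at 0.51 and -0.12. At the other end, TPM1 (tropomyosin) lay at -0.25 and -0.92, FLNA (filamin A) at -0.14 and -0.88, THBS1 (thrombospondin) at -0.30 and -0.85 and ACTN1 (actinin) at -0.23 and -0.71. These 4 lay below the median gene in both antibodies, whereas the Ser2 counting intervals of LUM (-0.11 to 0.27) and DCN (-0.02 to 0.28) reached it. The list medians were 0.09 and -0.25, or -0.05 and -0.08 without the density trend.

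Genes of the 66 measured cytosolic ribosomal proteins were split like the G1/S genes, with 54 above in total RNAPII (median 0.13) and 1 in Ser2 (median -0.36), where 30 were lower by 1.3-fold against 5.36% of all genes. Without the density trend both medians were -0.05, and 20 and 27 of 66 were above. RPL23 lay at -0.02 and -0.57 and RPS13 at 0.04 and -0.54. Splicing factor genes had the same form (0.14 and -0.22 over 37 genes, but 0.02 and -0.06 without the density trend), for example PTBP1 at 0.15 and -0.53 and SRSF7 at 0.05 and -0.46. The 7 measured spliceosomal snRNA genes lay at -0.46 and -0.70, with 0 above in either antibody, and at -0.36 and 0.00 without the trend. Their median density was 132 RPM per kb, where the trend was likewise not tested.

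**Figure D5:**
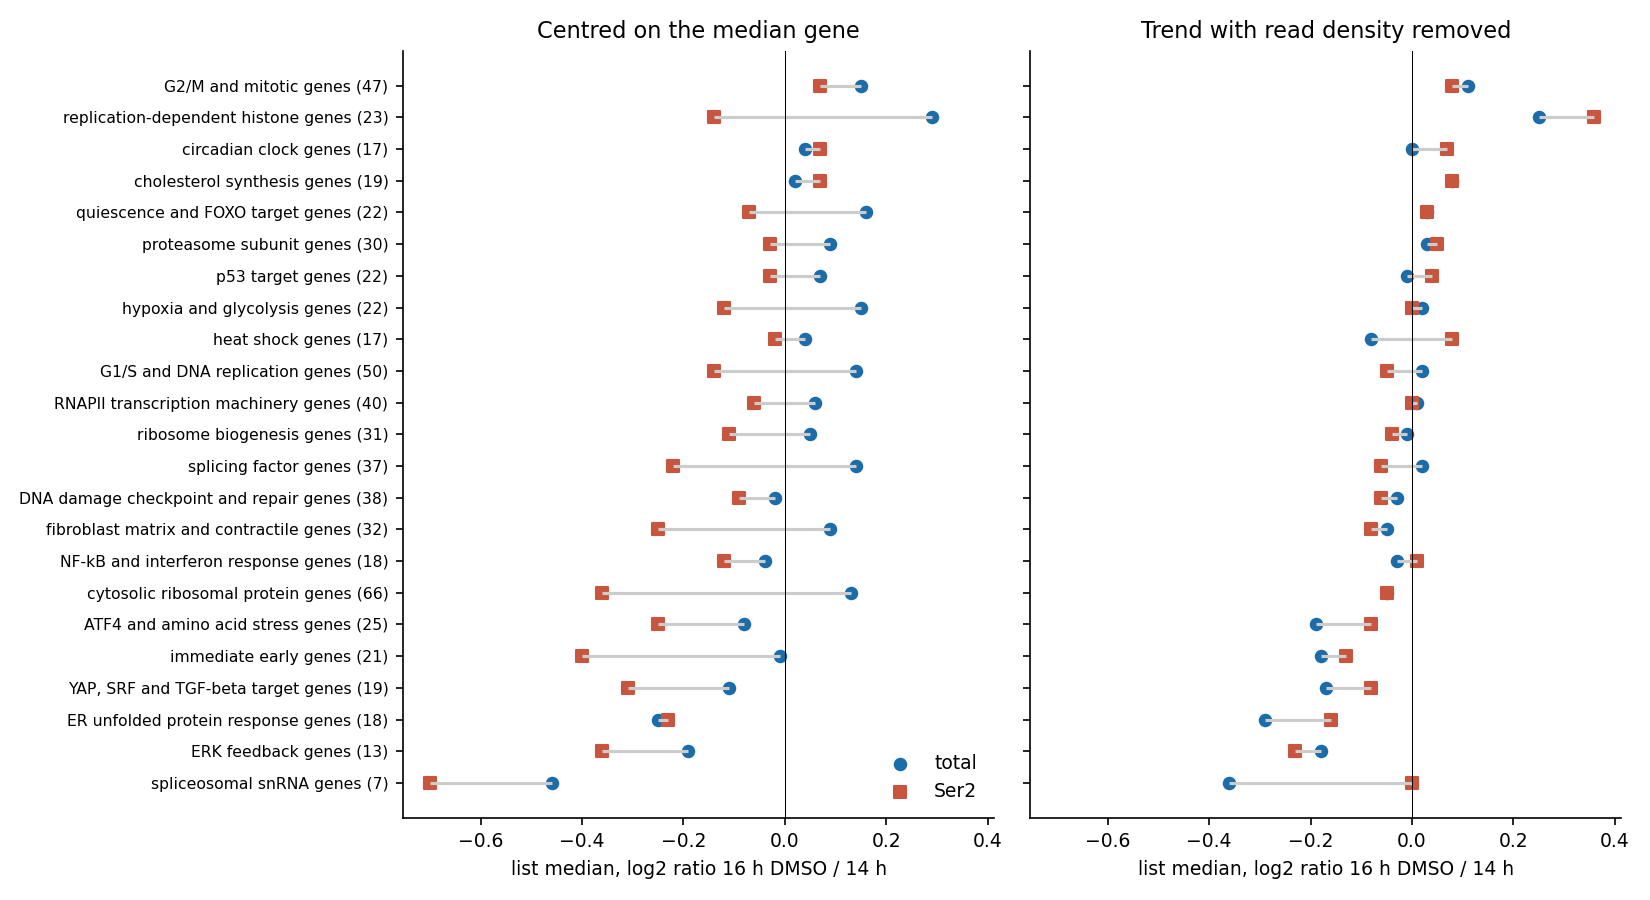
Median log2 ratio of 16 h DMSO to 14 h of 23 gene lists (number of genes measured in brackets) in total RNAPII (circles) and Ser2 RNAPII (squares), relative to the median gene (left) and with the trend with read density removed (right). Mitotic genes are above 0 and ER unfolded protein response and ERK feedback genes below 0 for both antibodies in both panels. The same holds for cholesterol synthesis genes above 0. It also holds below 0 for the immediate early, YAP, SRF and TGF-beta target, ATF4 and DNA damage lists.

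For the other lists, the total and Ser2 medians were 0.07 and -0.03 for 22 p53 target genes, -0.02 and -0.09 for 38 DNA damage checkpoint and repair genes, 0.05 and -0.11 for 31 ribosome biogenesis genes and 0.06 and -0.06 for 40 genes of the RNAPII machinery. They were 0.02 and 0.07 for 19 cholesterol synthesis genes, 0.04 and -0.02 for 17 heat shock genes, 0.15 and -0.12 for 22 hypoxia and glycolysis genes and 0.04 and 0.07 for 17 circadian clock genes. For 22 quiescence and FOXO target genes, 30 proteasome subunit genes and 18 NF-kB and interferon response genes they were 0.16 and -0.07, 0.09 and -0.03, and -0.04 and -0.12. Of the quiescence and FOXO list, 5 of 22 were higher in total RNAPII by 1.3-fold, against 5.41% of all genes, and 3 lower in Ser2, against 5.36%. With the density trend removed the medians were 0.03 in each antibody for that list, and 0.02 and 0.00 for the hypoxia and glycolysis list. GADD45A, a p53 target, went from 26.7 to 29.0 RPM in total and from 21.4 to 9.90 in Ser2 (-0.14 and -1.01), while CDKN1A, which encodes p21, lay at 0.13 and -0.34. MXD4, a repressor of the MYC network, went from 8.79 to 16.6 RPM in total (0.62) and from 7.88 to 7.37 in Ser2 (-0.03). The clock repressor gene CRY1 lay at -0.51 and 0.06 and CRY2 at 0.29 and 0.12. ATR itself lay at -0.11 and 0.02, CHEK1, the kinase it activates, at -0.02 and -0.20, PLK1 at 0.09 in each and POLR2A, the gene of RPB1, at 0.01 and -0.36.

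As a second look, all 14 libraries were fitted together with limma, with terms for the antibody and for the 7 conditions, so that the spread is the disagreement of the antibodies over conditions and not that of cultures. On the deposited scale the 16 h DMSO to 14 h contrast called 0 genes higher (0%) and 0 lower (0%) of 11944 at a Benjamini-Hochberg adjusted p of 0.05, and at an unadjusted p under 0.05 there were 340 higher and 23 lower. On recovered reads of 13 libraries edgeR called 0 higher and 5 lower, with 403 and 234 before adjustment, and DESeq2 1 higher and 16 lower, with 241 and 192. With each library centred on its median gene, limma called 1 gene higher (0.00837%) and 7 lower (0.0586%). EGR1 had a fitted log2 change of -1.79 (moderated SE 0.16, limma adjusted p = 0.000985), TAGLN one of -0.90 (limma adjusted p = 0.00601), and PCSK7 and HSPA5 ones of -0.92 and -0.79 (limma adjusted p = 0.0324 each). The other 3 lower genes were ENSG00000280143, ENSG00000078401 and ENSG00000166598, which the match by position left without a symbol. PCSK7 shares span with both TAGLN and ENSG00000280143, so the calls of these entries are not independent. The higher gene was CPZ (carboxypeptidase Z) at 0.63, whose span is wholly shared with another gene. PTGS2, at -1.01, missed the threshold (limma adjusted p = 0.0747). Each of these genes had the same sign in both antibodies. A fit whose spread is the disagreement of the antibodies favours such genes, and its contrast rests on the same 4 libraries. The shared sign is thus no separate check.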

How the data were processed

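RNAPII ChIP-seq signal was taken from the gene table of the series, 1 library per group. The deposited values are in RPM: the authors scaled the reads between the start and end of each gene to 1000000 reads of the library and did not divide by length. The submitters' processing notes list Bowtie2 2.3.3.1, SAMtools 1.4 and the build hg38. The counting tool, the annotation and any use of input, spike-in or duplicate removal are not given in the sources used here. The extract protocol in the labels names antibodies to histones only, so antibody identity rests on the sample characteristics.

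Each column was a multiple of 1 read (tolerance 0.01, 100.0% of values), which gave whole reads and library totals. Ensembl identifiers were named by position against RefSeq GRCh38.p14 (Jaccard index of at least 0.8, or 0.5 with an end within 100 bp), which named 10722 of 12425 genes (86.3%). Of the compared genes 34.3% share span with another gene. Log2((RPM at 16 h + 0.5)/(RPM at 14 h + 0.5)) was centred on the median of the 11944 nuclear genes whose mean reached 1 RPM, and genes past 1.3-fold are given as higher or lower. With 1 library per group no p-value is given for these ratios. The density trend is a lowess curve of the ratio on mean log2 RPM per kb (fraction 0.3, statsmodels 0.14.6). Promoter motifs were searched on both strands of 8578 RefSeq windows. Single genes were named by rule: the 12 highest and 12 lowest in both antibodies, 6 on each side with opposite signs, up to 4 of each list, and 18 preset genes of which 14 were measured. Genes ranked this way needed a symbol, 50 reads in each library and under 10% shared span. Other genes named were chosen after their values were seen.

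The second look used limma 3.58.1 (R 4.3.3, moderated and two-sided, with trend) on all genes and 14 libraries. edgeR 4.0.16 and DESeq2 1.42.0 on recovered whole reads used 13 libraries, since the Ser2 22 h ATRi library did not pass the check of its low values. Only the limma fit on the deposited scale was run on simulated data, which held no density trend. The centred, edgeR and DESeq2 fits were not. The genes and the 23 lists were chosen with earlier results of these data known.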

Additional observations from a re-analysis of the deposited data

Results flagged for a closer look

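The total and Ser2 ratios of 16 h DMSO to 14 h ran in opposite directions across genes, with Pearson's r of -0.14, which is why this value is listed. Replication-dependent histone genes lay at a median of 0.29 in total RNAPII and -0.14 in Ser2, on opposite sides of the median gene. Cytosolic ribosomal protein genes likewise lay at 0.13 in total RNAPII and -0.36 in Ser2. With 1 library in each group, the difference between the antibodies was not tested in any of these 3 cases.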

How the results depend on the processing

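No replicate could be left out, since each group is 1 library. No paired analysis was possible because the groups compared hold 1 library each. Genes higher in both antibodies numbered 22, against 34 and 14 with a pseudocount of 0.1 and 1 RPM, 10 at a mean of at least 5 RPM, 36 without centring, 39 with the density trend removed, 187 with background subtracted, 241 with the 16 h ATRi libraries, and 112, 0 and 0 at 1.2-, 1.5- and 2-fold. Genes lower in both numbered 29, against 8 without centring, 44 with the trend removed, 110 with background subtracted, 17 among genes that overlap no other, 66 with ATRi, and 96, 10 and 1 at those folds. Genes in opposite directions numbered 42, against 78 and 23 with those pseudocounts, 67 without a filter, 24 at 5 RPM, 360 without centring, 22 with the trend removed, 260 with background subtracted, 26 without overlaps, and 331, 0 and 0 at those folds. The correlation of the antibodies, -0.14, was -0.02 with background subtracted, 0.29 with the trend removed and 0.31 with ATRi. The cause was not tested.

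Without centring, the members above 0 in total RNAPII were 46 of 47 for mitotic genes, 23 of 23 for histones, 17 of 21 for immediate early genes, 9 of 13 for ERK feedback genes, 10 of 18 for unfolded protein response genes, 66 of 66 for ribosomal proteins and 19 of 25 for the ATF4 list, as the construction of that scale, with the median gene at 0.26, gives. With the trend removed, members above were 4 of 21 immediate early, 1 of 13 ERK feedback and 20 of 66 ribosomal protein genes in total, and 23 of 23 histones, 27 of 66 ribosomal protein genes and 3 of 7 snRNA genes in Ser2. H1-2 and RNVU1-7 then lay at 0.10 and 0.01 in Ser2. With ATRi, members above were 23 histone, 17 immediate early, 12 ribosomal protein and 22 of 50 G1/S genes in total, and 21 histone, 7 immediate early and 12 of 22 hypoxia genes in Ser2, where H1-2 lay at 0.09 and DMWD at 0.01. In Ser2, 9 histone genes were above with background subtracted. Of immediate early genes 0 were above in Ser2 at 5 RPM or without centring, and of ribosomal protein genes 0 without overlapping genes. The 14-library fit called 0 higher and 0 lower on the deposited scale, 1 and 7 after centring, 0 and 5 with edgeR, and 1 and 16 with DESeq2. Of the 258 ratios of single named genes, 163 with ATRi, 167 without centring, 175 with the trend removed, 225 with background subtracted and 258 with TMM scaling stayed within their counting interval.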

Other observations

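Genes of the X chromosome, 340 in number, lay at the median gene in both antibodies before the density trend was removed (0.01 in total RNAPII and -0.01 in Ser2). With the trend removed they lay at 0.13 in total and -0.10 in Ser2. Their median density was 0.32 RPM per kb, the lowest of the chromosomes compared.

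Several genes low at 16 h were at their highest in DMSO at 19 h. PTGS2 had 113.9 RPM in total RNAPII and 99.2 in Ser2 at 19 h, against 39.7 and 24.0 at 22 h. MMP1 had 88.8 and 71.1 RPM at 19 h, and HSPA5 40.8 and 28.3. Nuclear genes took 72.0% and 63.5% of the reads of the 19 h DMSO libraries, and the part of that share in these levels was not tested.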
